A study of Mus musculus with 12 samples.

Results

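Ligands of the tumor necrosis factor (TNF) superfamily were measured in peritoneal exudate cells, the mixed cells washed out of the abdominal cavity. The members were 10 genes, Tnf, Lta, Ltb, Fasl, Tnfsf4, Tnfsf9, Tnfsf10, Tnfsf13b, Tnfsf14 and Tnfsf15, taken by the gene name the array files give out of 27962 such names. They were read by 12 of 41174 probes, which made up 39 of the 43379 non-control spots of each array. Of the 10 genes, 9 entered the test among 18274 genes. Tnfsf15 was left out because no group measured it above background on all of its arrays.

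Each of 12 single-colour Agilent arrays held RNA from cells of a different female mouse of 8 weeks, strain 129S2/SvPas*BALB/c. The mice were wild type or Ifnar2-/-, lacking the gene of a subunit of the type I interferon receptor. They were injected into the peritoneal cavity with interferon beta (IFN-β) at 10000 IU/ml, with no volume stated, or with phosphate-buffered saline (PBS). Cells were lysed 3 hours later. This gave 4 groups of 3 arrays, namely wild type after PBS, wild type after IFN-β, Ifnar2-/- after PBS and Ifnar2-/- after IFN-β. The comparison of genotypes asks what IFN-β does to these genes when Ifnar2 is missing.

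TNF superfamily ligands are trimeric proteins, mostly anchored in the cell membrane, that bind receptors of a matching family on neighbouring cells. Some receptors carry a death domain and can start apoptosis, while others recruit TRAF adaptors and activate NF-kB. In the peritoneal cavity the ligands are made by macrophages, mast cells, natural killer (NK) cells and lymphocytes, and Tnfsf10, which encodes TRAIL, is a known target gene of type I interferon.

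Values are log2 levels, the log2 of the processed signal minus the 75th percentile of that array, so a level can be compared between arrays for a gene but not between genes. Between 59.4% and 71.6% of the spots lay well above background. The 4 arrays of slide 3, which held Ifnar2-/- samples alone (replicates 2 and 3 after PBS and after IFN-β), had the lowest share, at most 62.5%. The lowest level still above background was between -5.46 and -5.02 on those arrays and between -6.66 and -6.07 on the others, which bears on Fasl, Tnfsf9 and Tnfsf15. Ifnar2 itself was read by 2 probes that differed in opposite directions between genotypes after PBS, by -1.85 (A_52_P190405) and 0.96 (A_51_P338924), both past limma's test among all probes. Which part of the gene is deleted is not stated in the labels. The interferon-stimulated gene Isg15 rose by 8.66 in wild type and differed by 0.32 (adjusted p = 0.312) in Ifnar2-/-. Within groups, pairs of arrays had r = 0.974 to 0.993 across genes, which are not independent replicates, and the lowest values were those of Ifnar2-/- after IFN-β. Defining markers of B cells, large peritoneal macrophages and mast cells were above background on all 12 arrays (12 of 12, 12 of 12 and 10 of 10 markers), and the eosinophil marker Epx was above it on none.

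In wild type, 3 of the 9 tested ligands rose after IFN-β and 1 fell, at an adjusted p under 0.05 in limma's fit. Over all genes 17.6% rose and 21.8% fell. These shares also stand beside the wild-type counts of cell type markers further on. In Ifnar2-/-, 2 ligands rose and none fell, against 0.925% and 0.208% of all genes. Both shares also stand beside the Ifnar2-/- counts of cell type markers further on. Fewer genes passed there, so the same unadjusted p gave a higher adjusted p than in wild type. In limma's fit Tnfsf10 and Tnfsf14 had unadjusted p = 0.00143 and 0.0013 in Ifnar2-/- and did not pass. Ltb passed in wild type at an unadjusted p of 0.005. By limma's test the response of 1 ligand was higher in Ifnar2-/- than in wild type and that of 1 was lower, where 8.68% and 9.09% of all genes were called. Between genotypes after PBS no ligand was higher and 1 was lower in Ifnar2-/-, against 2.85% and 2.04% of all genes. All wild-type arrays after PBS were on slide 1, which held no Ifnar2-/- array, so slide and genotype cannot be told apart after PBS. After IFN-β, 2 ligands were higher and 2 lower in Ifnar2-/-, against 21.3% and 17.2%. Tnfsf9 is 1 of the 2 ligands that passed in Ifnar2-/-, the ligand with the higher response and the ligand lower after PBS, and 2 of its 3 Ifnar2-/- arrays after PBS did not measure it. With such levels raised to the limit of their array, 1, 1 and 0 ligands were called in these 3 comparisons. The members' median log2 difference was 0.26 in wild type and 0.97 in Ifnar2-/-, where all genes had medians of -0.04 and -0.05. Both member medians are the values of Lta alone, which passed limma's test in neither genotype (adjusted p = 0.703 and 0.288). The Lta value in Ifnar2-/- was 0.45 without the third array after IFN-β, so the 0.97 leans on that array. The responses of the genotypes have no arrays in common, whereas the comparisons between genotypes reuse the same 12 arrays. In RNA from mixed cells, fewer cells of a type and less RNA per cell cannot be told apart.

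**Figure D1:**
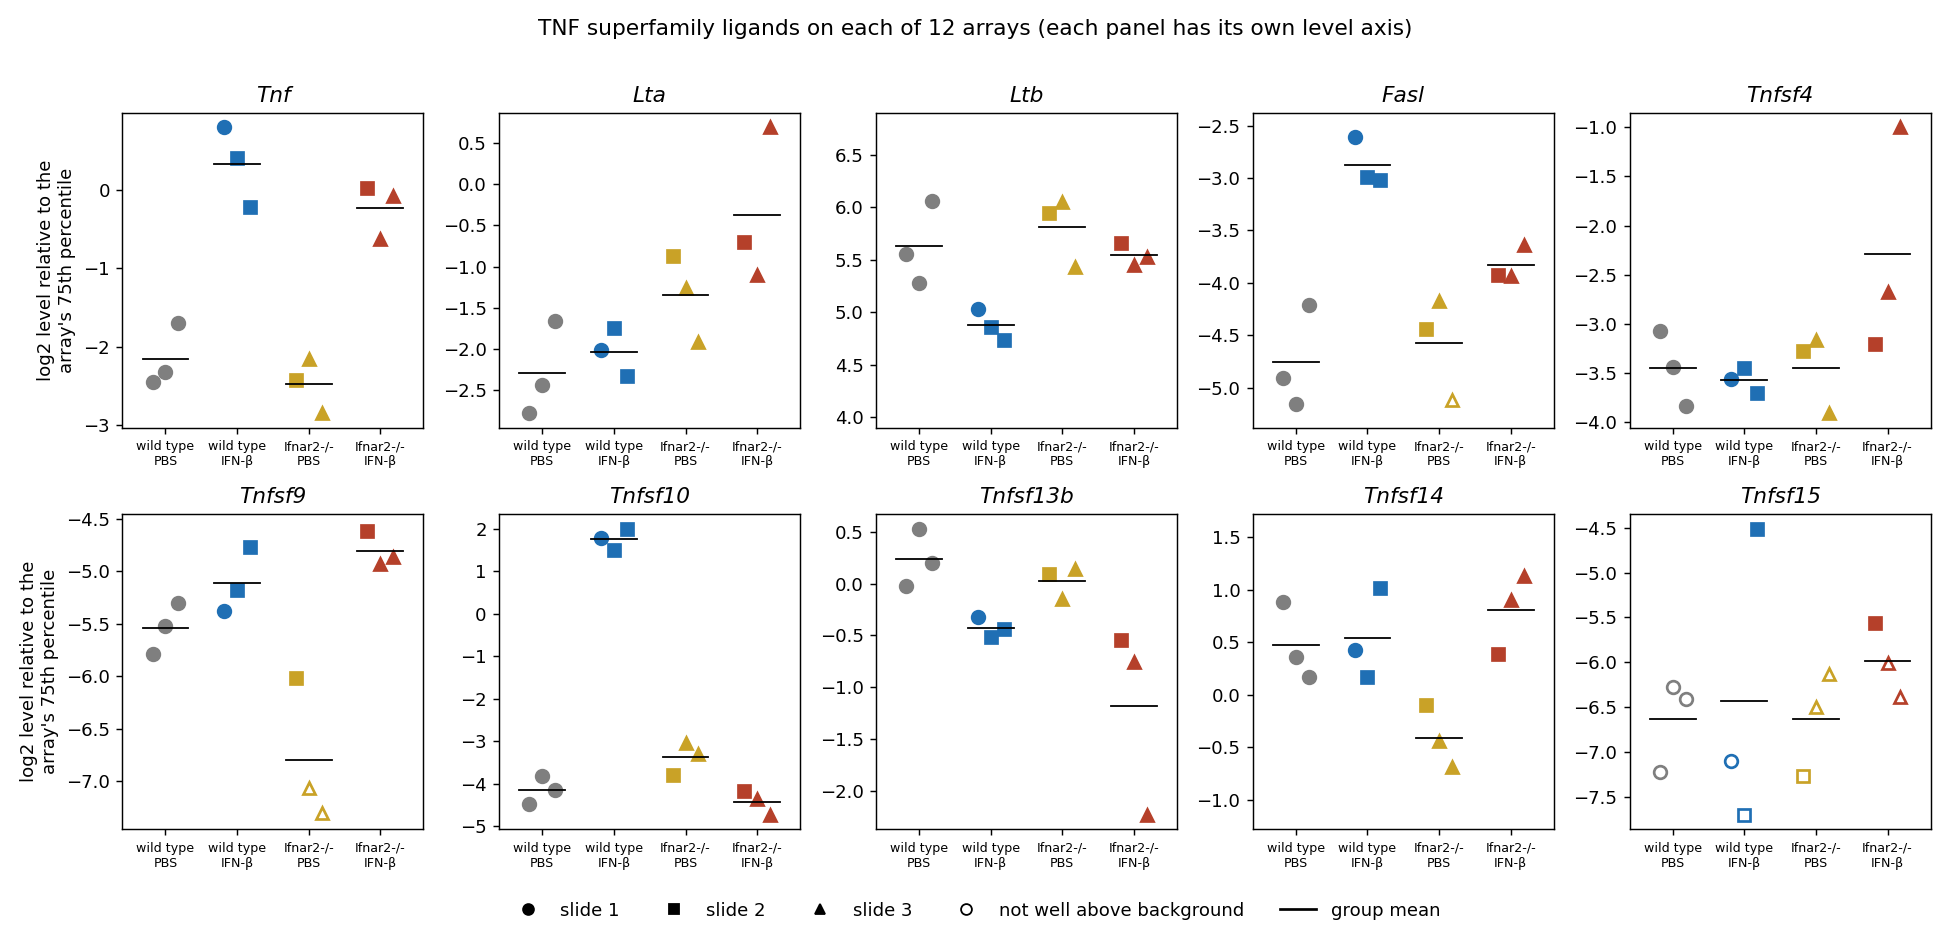
Log2 level of each ligand relative to the array's 75th percentile (y axis, its own range in each panel) on the 12 arrays by group (x axis), with a line at the group mean, the slide as the shape of the point, and open points where the probe was not well above background. Tnfsf10 was high in wild type after IFN-β alone, while Tnf was high after IFN-β in both genotypes.

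Among the death ligands, Tnfsf10 had the largest response of the 9 tested ligands. TRAIL, its product, binds death receptors and can kill transformed or infected cells. The probe (A_51_P448741, accession NM_009425, chromosome 3, 27151623 to 27151682 on the mm7 build named in the file headers) read levels of -4.49, -3.82 and -4.15 in wild type after PBS. After IFN-β the levels were 1.78, 1.49 and 2.00. Every wild-type array after IFN-β stood above every array of the other groups. The difference was 5.91 (SE 0.24), or 60-fold, with an adjusted p of 4.45e-08 in limma's fit.

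In Ifnar2-/- mice Tnfsf10 read -3.79, -3.04 and -3.30 after PBS and -4.17, -4.36 and -4.73 after IFN-β. All 3 arrays after IFN-β were below all 3 after PBS. The difference of -1.04 (SE 0.24) did not pass limma's test (adjusted p = 0.0727, with 0.0538 to 0.276 over the other settings). It was -0.37 within slide 2, with 1 array on each side, and -1.37 within slide 3, with 2 on each side. The responses of the genotypes differed by -6.95 (SE 0.34, adjusted p = 6.1e-07). After IFN-β the level was 72.1-fold lower in Ifnar2-/- than in wild type (log2 difference -6.17, SE 0.24, adjusted p = 2.59e-08). After PBS the level in Ifnar2-/- was 0.78 above that in wild type (SE 0.24, adjusted p = 0.109), in contrast to Isg15, which was 1.36 lower there (-1.36, adjusted p = 0.000671). Of the 26 other settings, that Tnfsf10 difference passed only without the first Ifnar2-/- array after PBS, at 0.98 (adjusted p = 0.0429). Beside the wild-type rise, 5 of 8 monocyte markers rose and none fell, with summed levels between 233 and 261 on the PBS arrays and between 482 and 530 on the IFN-β arrays. In Ifnar2-/- none of the 8 passed, and the sums lay between 228 and 254 and between 228 and 237. The part of monocytes in the Tnfsf10 values was not tested.

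The bases upstream of Tnfsf10 and of Tnf are shown because both genes rose in wild type, whereas in Ifnar2-/- Tnf passed the test and Tnfsf10 did not. The sequences are from RefSeq on GRCm38.p6, where 8 of 10 members had an entry (not Tnfsf4 and Tnfsf9), and are read 5′ to 3′ toward the gene for the 250 bases before its start. Tnfsf10 lies on the + strand (chr3:27316827-27317076) and Tnf on the - strand (chr17:35202008-35202257). Capitals mark matches to AANNGAAA, a loose half-site of interferon regulatory factors, searched on both strands.
Tnfsf10: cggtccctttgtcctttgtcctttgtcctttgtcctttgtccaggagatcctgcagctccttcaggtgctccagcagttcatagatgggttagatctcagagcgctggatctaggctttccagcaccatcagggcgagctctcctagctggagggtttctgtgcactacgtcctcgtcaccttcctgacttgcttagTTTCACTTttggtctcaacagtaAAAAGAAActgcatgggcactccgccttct
Tnf: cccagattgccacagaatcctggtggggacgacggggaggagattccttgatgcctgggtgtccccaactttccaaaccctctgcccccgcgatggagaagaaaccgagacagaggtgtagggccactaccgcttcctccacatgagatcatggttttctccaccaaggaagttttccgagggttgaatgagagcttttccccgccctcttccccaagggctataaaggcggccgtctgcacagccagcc
The Tnfsf10 window held 2 such matches, 53 to 46 and 30 to 23 bases before the start, and the Tnf window held 0. The window of Fasl, which also rose in wild type and did not pass in Ifnar2-/-, held 0 as well. Those of Lta, Ltb and Tnfsf14 held 0, that of Tnfsf15 held 1, and those of the 2 Tnfsf13b starts held 0 and 3. Of 32851 promoter windows of the same length, 21.3% held at least 1. The full core of the interferon-stimulated response element, GAAANNGAAA, overlaps this half-site. It was in neither the Tnfsf10 nor the Tnf window, and was in 2.98% of all windows. A match describes letters in its window and no more.

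Fasl encodes Fas ligand, which cytotoxic T and NK cells use to kill target cells. Its probe with the higher signal (A_52_P77106, NM_010177, mm7 chromosome 1, 161743675 to 161743734) was printed on 10 spots, whose log2 values had an SD of 0.09 to 0.46 within an array. It read -4.91, -5.15 and -4.21 in wild type after PBS and -2.61, -2.99 and -3.02 after IFN-β. The groups did not overlap. The rise was 1.88 (SE 0.28, adjusted p = 0.000402 by limma), or 3.69-fold. The other probe (A_52_P173985, mm7 chromosome 1, 161750452 to 161750511) gave a smaller rise of 0.94 (SE 0.23, adjusted p = 0.00814 among all probes).

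In Ifnar2-/- mice Fasl read -4.44, -4.17 and -5.12 after PBS, the last of which was not well above background, and -3.92, -3.93 and -3.64 after IFN-β. All 3 arrays after IFN-β were higher than all 3 after PBS, but the difference of 0.75 (SE 0.28) did not pass limma's test (adjusted p = 0.202). The responses differed by -1.13 (SE 0.40, adjusted p = 0.0765), with 0.0150 to 0.184 over the other settings. That difference passed the threshold with normexp background correction (-0.69, adjusted p = 0.0150), and at -1.41 each without wild-type PBS replicate 3 or without Ifnar2-/- PBS replicate 3 (adjusted p = 0.0264 and 0.0271). After IFN-β, Fasl was 0.96 lower in Ifnar2-/- than in wild type (-0.96, SE 0.28, adjusted p = 0.0206). That call was lost without wild-type IFN-β replicate 1 (-0.83, adjusted p = 0.0788), and without Ifnar2-/- IFN-β replicate 1 or 2 (-0.91 each, adjusted p = 0.0518 and 0.0610). It was also lost with slide as a fixed block (-0.80, adjusted p = 0.179) and with no scaling between arrays (-0.58, adjusted p = 0.127). The other Fasl probe gave 0.63 in Ifnar2-/- and -0.31 between the responses (adjusted p = 0.195 and 0.597 among all probes). After IFN-β it was lower in Ifnar2-/- (-0.66, adjusted p = 0.0438). It was well above background on 1 of 3 Ifnar2-/- arrays after PBS and on 1 of 3 after IFN-β. Beside the wild-type rise of Fasl, 5 of 10 NK cell markers rose and 3 fell, and their summed level, on a linear scale relative to the 75th percentile, lay between 2.39 and 4.85 after PBS and between 9.24 and 12.2 after IFN-β. In Ifnar2-/- none of the 10 passed and the sums were 3.29 to 6.22 and 5.13 to 8.13. The part of these cells in the Fasl values was not tested.

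The second Fasl probe and the Tnfsf9 probe are shown, since on more than 1 array of slide 3 neither was well above background. Each is the 60-base probe printed on the array.
Fasl A_52_P173985: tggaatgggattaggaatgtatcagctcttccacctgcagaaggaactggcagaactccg
Tnfsf9 A_51_P460004: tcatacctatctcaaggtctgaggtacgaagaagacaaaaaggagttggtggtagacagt
The Fasl probe was well above background on 8 of 12 arrays and the Tnfsf9 probe on 10 of 12.

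Tnf, Lta and Ltb are neighbours on chromosome 17 within the major histocompatibility complex. Tnf encodes the inflammatory cytokine TNF, which macrophages and mast cells release quickly on activation. Its probe (A_51_P385099, NM_013693, mm7 chromosome 17, 33296067 to 33296126), also on 10 spots with an SD of 0.05 to 0.23 within an array, read -2.45, -2.32 and -1.70 in wild type after PBS. After IFN-β it read 0.80, 0.41 and -0.22. In Ifnar2-/- it read -2.43, -2.15 and -2.85 after PBS and 0.02, -0.63 and -0.08 after IFN-β. In both genotypes the lowest array after IFN-β lay above the highest array after PBS.

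Tnf rose by 2.49 (SE 0.31, adjusted p = 0.000115) in wild type and by 2.24 (SE 0.31, adjusted p = 0.0104) in Ifnar2-/- in limma's fit, or 5.60-fold and 4.74-fold. The responses differed by -0.24 with a 95% interval of -1.20 to 0.72 (adjusted p = 0.783), so a response up to 1.20 log2 units smaller in Ifnar2-/- lies within the interval. The rise in Ifnar2-/- was 2.46 within slide 2, with 1 array on each side, and 2.14 within slide 3. In wild type it was 2.96 within slide 1, with 1 array after IFN-β, the highest of its group, against 3 after PBS. When only the 6 Ifnar2-/- arrays were fitted, the difference stayed at 2.24 but missed the threshold (adjusted p = 0.0629), where 13 genes in all were called. The genotypes differed by -0.32 after PBS and -0.56 after IFN-β (adjusted p = 0.600 and 0.174). Beside the rise in Ifnar2-/-, the summed level of 10 neutrophil markers lay between 12.5 and 17.6 after PBS and between 21.6 and 200 after IFN-β, with none of the 10 past the test. In wild type those sums were 10.5 to 109 and 17.8 to 25.2. Their part in the Tnf values was not tested.

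**Figure D2:**
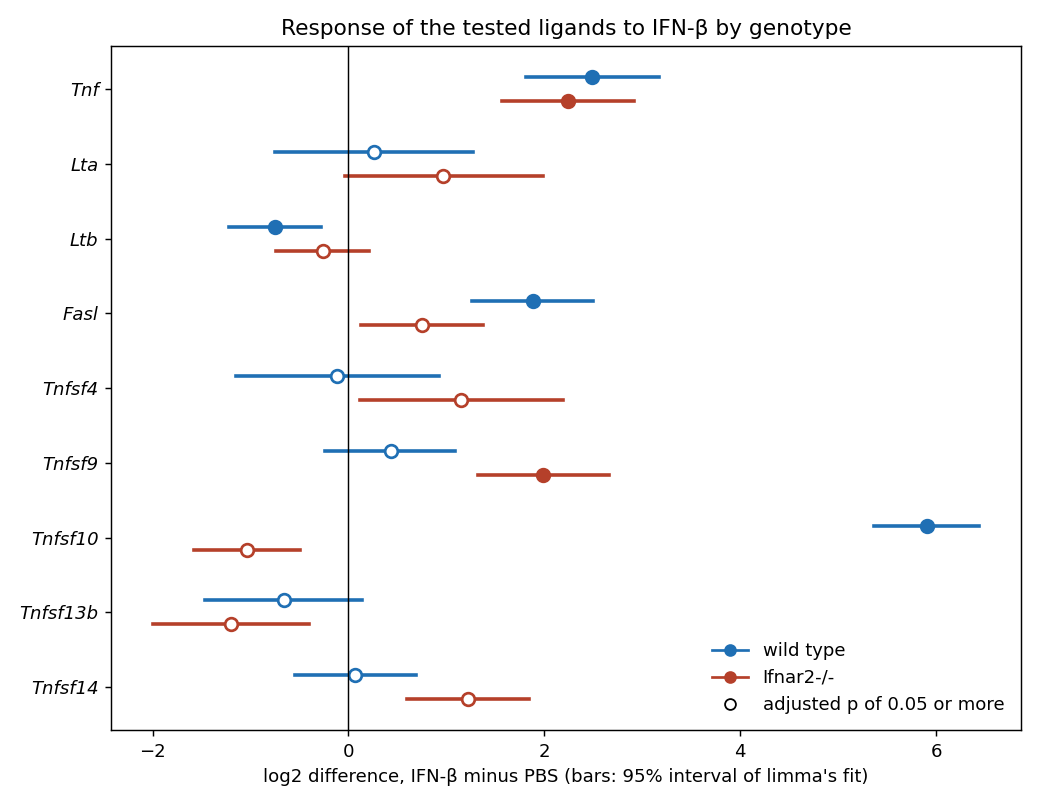
Log2 difference between IFN-β and PBS (x axis) for the 9 tested ligands (y axis) in wild type and in Ifnar2-/-, with 95% intervals from limma's fit and open points for an adjusted p of 0.05 or more. Tnf lies at 2.49 and 2.24 in the genotypes, and Tnfsf10 at 5.91 and -1.04.

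Lta encodes lymphotoxin alpha, which lymphocytes secrete or display together with lymphotoxin beta. The probe (A_51_P351015, NM_010735, mm7 chromosome 17, 33299547 to 33299606) read -2.78, -2.44 and -1.66 in wild type after PBS and -2.01, -1.75 and -2.33 after IFN-β. These groups overlapped and differed by 0.26 (SE 0.46, adjusted p = 0.703). In Ifnar2-/- it read -0.87, -1.26 and -1.91 after PBS and -0.70, -1.10 and 0.69 after IFN-β. These overlapped too, at a difference of 0.97 (SE 0.46, adjusted p = 0.288) that was 0.45 without the array at 0.69. After IFN-β, Lta was higher in Ifnar2-/- than in wild type on all 3 arrays, by 1.66 (SE 0.46, adjusted p = 0.0154 by limma), or 3.16-fold. Without the array at 0.69 this was 1.13 (adjusted p = 0.0365), and without wild-type IFN-β replicate 3 the call was lost (1.51, adjusted p = 0.0525), as it was with slide as a fixed block (1.74, adjusted p = 0.0946). After PBS the genotypes differed by 0.95 (SE 0.46, adjusted p = 0.275).

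Ltb encodes the membrane anchor of the lymphotoxin heterotrimer and is made mainly by B and T lymphocytes. The probe (A_51_P302358, NM_008518, mm7 chromosome 17, 33292571 to 33292630) read 5.56, 5.28 and 6.06 in wild type after PBS and 5.03, 4.86 and 4.74 after IFN-β. All 3 arrays after IFN-β were the lowest of the 12. Ltb fell by 0.75 (SE 0.21, adjusted p = 0.0166 by limma). The call was lost without wild-type PBS replicate 3 (-0.54, adjusted p = 0.0602), without wild-type IFN-β replicate 3 (-0.69, adjusted p = 0.0560) and in the fit that blocked on slide (-0.60, adjusted p = 0.202). In Ifnar2-/- it read 5.95, 6.05 and 5.43 after PBS and 5.66, 5.45 and 5.53 after IFN-β, a difference of -0.26 (SE 0.21, adjusted p = 0.545). The responses differed by 0.49 (SE 0.30, adjusted p = 0.323). After IFN-β the level was 0.67 higher in Ifnar2-/- (SE 0.21, adjusted p = 0.0292), a call that was lost without any 1 of the 3 Ifnar2-/- arrays after IFN-β (0.62 to 0.72, adjusted p = 0.0518 to 0.0742) and without wild-type IFN-β replicate 2 or 3 (0.66 and 0.60, adjusted p = 0.0682 and 0.0868). It was also lost with slide as a fixed block (0.87, adjusted p = 0.0628) and with no filter on dim probes (0.67, adjusted p = 0.0586).

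Lymphocyte markers moved beside Ltb in wild type. Of 12 T cell markers, 7 fell and none rose, with a median of -1.03, and their summed level lay between 9.55 and 9.77 after PBS and between 3.87 and 5.11 after IFN-β. Of 12 B cell markers, 6 fell and none rose, with a median of -0.91 and sums of 218 to 332 and 212 to 263. In Ifnar2-/- none of either list passed, and the T cell sums lay between 10.5 and 17.0 on the PBS arrays and between 8.95 and 11.2 on the IFN-β arrays. After IFN-β, 7 of 12 T cell markers and 5 of 12 B cell markers were higher in Ifnar2-/- than in wild type. Of the same lists 0 and 1 were lower. Over all genes 21.3% were higher and 17.2% lower. These counts stand beside the higher Lta and Ltb in Ifnar2-/-. The part of lymphocytes in the Lta and Ltb values was not tested.

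Tnfsf9, the gene of 4-1BB ligand, encodes a costimulator that antigen-presenting cells show to activated T cells. It read -5.79, -5.52 and -5.30 in wild type after PBS and -5.38, -5.18 and -4.77 after IFN-β (probe A_51_P460004, NM_009404, mm7 chromosome 17, 55318447 to 55318506). The groups overlapped and differed by 0.43 (SE 0.30, adjusted p = 0.300). In Ifnar2-/- it read -6.02, -7.06 and -7.30 after PBS, where only the first array measured it above background, and -4.61, -4.93 and -4.86 after IFN-β. The groups did not overlap. As read, the difference in Ifnar2-/- was 1.99 (SE 0.30, adjusted p = 0.0153 by limma), the difference between the responses 1.56 (SE 0.43, adjusted p = 0.0285), and that between genotypes after PBS -1.26 (SE 0.30, adjusted p = 0.0415).

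These 3 Tnfsf9 calls rest on the arrays that did not measure it. When levels not well above background were raised to the lowest level above it on the same array, a setting added after the data were seen, the differences were 0.69 (adjusted p = 0.193), 0.27 (adjusted p = 0.690) and 0.04 (adjusted p = 0.951). With normexp background correction they were 0.36, 0.08 and -0.26, none past the threshold. Without Ifnar2-/- PBS replicate 2 they were 1.86, 1.43 and -1.12 and without replicate 3 they were 1.74, 1.31 and -1.0, again none past it. Over the other settings the calls were lost in 6 of 25, 11 of 24 and 15 of 25, and in the last comparison 1 further setting changed the sign, to the 0.04 above. Within slide 2, where both Ifnar2-/- arrays were above background, the difference after IFN-β was 1.40 with 1 array on each side. After IFN-β, where all 6 arrays measured the gene, the genotypes differed by 0.31 (SE 0.30, adjusted p = 0.448), and by 0.69 with no scaling between arrays (adjusted p = 0.0464).

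Tnfsf4 encodes OX40 ligand, which sustains T cell responses. The probe (A_51_P473170, NM_009452, mm7 chromosome 1, 161380326 to 161380384) read -3.07, -3.44 and -3.84 in wild type after PBS and -3.56, -3.45 and -3.70 after IFN-β. The groups overlapped, at a difference of -0.12 (SE 0.47, adjusted p = 0.879). In Ifnar2-/- it read -3.28, -3.16 and -3.91 after PBS and -3.20, -2.68 and -1.0 after IFN-β, where 1 array stood far above the others. The difference was 1.15 (SE 0.47, adjusted p = 0.230), and 0.51 without that array. After IFN-β the level was 1.27 higher in Ifnar2-/- (SE 0.47, adjusted p = 0.0531), which passed in 6 of 26 other settings and was 0.63 (adjusted p = 0.105) without that array.

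Tnfsf14 encodes LIGHT, a ligand of the lymphotoxin beta receptor and of HVEM. The probe (A_51_P208240, NM_019418, mm7 chromosome 17, 55400391 to 55400450) read 0.88, 0.36 and 0.17 in wild type after PBS and 0.43, 0.17 and 1.02 after IFN-β, with a difference of 0.07 (SE 0.28, adjusted p = 0.878). In Ifnar2-/- it read -0.10, -0.44 and -0.69 after PBS and 0.39, 0.90 and 1.13 after IFN-β. The Ifnar2-/- groups did not overlap, and the 3 arrays after PBS were the lowest of the 12. Their difference of 1.22 (SE 0.28) missed the threshold of limma's test (adjusted p = 0.0682), as did the difference between the responses (1.15, SE 0.39, adjusted p = 0.0729) and that between genotypes after PBS (-0.88, SE 0.28, adjusted p = 0.115). The first passed in 4 of 26 other settings, at adjusted p values from 0.0384, and the second in 4 of 25, from 0.0182. The difference in Ifnar2-/- was 0.49 within slide 2, with 1 array on each side, and 1.58 within slide 3, with 2 on each side.

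Tnfsf15 encodes TL1A, the ligand of death receptor Tnfrsf25. Its probe (A_52_P527741, NM_177371, mm7 chromosome 4, 63163641 to 63163700) was above background on 2 of 12 arrays, at -4.51 on wild-type IFN-β replicate 3 and at -5.56 on Ifnar2-/- IFN-β replicate 1. No array after PBS measured it, so no fold is given.

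Tnfsf13b encodes BAFF, a survival factor for B cells that myeloid cells supply. Its brighter probe (A_51_P257934, NM_033622, mm7 chromosome 8, 10005713 to 10005772) read -0.02, 0.53 and 0.20 in wild type after PBS and -0.32, -0.52 and -0.44 after IFN-β. The groups did not overlap, but the difference of -0.66 (SE 0.36) did not pass limma's test (adjusted p = 0.178). Without Ifnar2-/- IFN-β replicate 3, an array of another group that enters the common estimate of spread, the same -0.66 passed (adjusted p = 0.0062), as it did with only the wild-type arrays (adjusted p = 0.0182). The other probe (A_52_P365480, AK034121, mm7 chromosome 8, 10007535 to 10007594) gave -0.83 (SE 0.28, adjusted p = 0.0361 among all probes). In Ifnar2-/- the brighter probe read 0.09, -0.15 and 0.14 after PBS and -0.54, -0.76 and -2.23 after IFN-β. All 3 arrays after IFN-β were below all 3 after PBS, at -1.20 (SE 0.36, adjusted p = 0.133), or -0.67 without the array at -2.23. The responses differed by -0.54 (SE 0.51, adjusted p = 0.557). After PBS and after IFN-β the genotypes differed by -0.21 and -0.75 (adjusted p = 0.783 and 0.126), the second passing without Ifnar2-/- IFN-β replicate 1 (-1.07, adjusted p = 0.0387). The other Tnfsf13b probe gave -0.87 in Ifnar2-/- (adjusted p = 0.153 among all probes) and -0.05 between the responses (adjusted p = 0.962). On that probe the genotypes differed by -0.21 after IFN-β (adjusted p = 0.585). RefSeq lists 2 starts for Tnfsf13b. Both are on the + strand, and the 30 bases before the second (chr8:10006603-10006632, GRCm38.p6) are shown because this was the only window among the members with a GAAANNGAAA match, with AANNGAAA and GAAANNGAAA matches in capitals.
Tnfsf13b, second start: atcttacaaaAACTGAAAGTGAAAtgcgga
The GAAANNGAAA match lay 16 to 7 bases before this start and overlaps AANNGAAA. None of the other 7 members with an entry had a GAAANNGAAA match in its 250 bases.

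The third array of Ifnar2-/- after IFN-β stood apart for several ligands. It had the highest Lta (0.69), the highest Tnfsf4 (-1.0) and the lowest Tnfsf13b (-2.23) of the 12 arrays, and the highest sum of neutrophil markers (200, against 10.5 to 109 on the others). Its Tnf level of -0.08 and its Tnfsf9 level of -4.86 lay within the range of the other arrays of its group. The part of neutrophils in these values was not tested. Without this array 2 ligands remained called in Ifnar2-/-, Tnf and Tnfsf9.

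Receptors of the family were taken from a list of 24 genes, of which 23 were tested (not Tnfrsf9). In wild type 8 rose and 5 fell after IFN-β, where 17.6% and 21.8% of all genes did. In Ifnar2-/- none passed in either direction, where 0.925% of all genes rose and 0.208% fell. The difference between the responses passed for 4, all lower in Ifnar2-/-, where 8.68% of all genes were higher and 9.09% lower. The TNF receptors Tnfrsf1b and Tnfrsf1a rose by 1.26 (SE 0.20) and 1.08 (SE 0.14) in wild type and differed by 0.30 and 0.45 in Ifnar2-/- (adjusted p = 0.449 and 0.149). For Tnfrsf1b the responses differed by -0.96 (adjusted p = 0.0394) and for Tnfrsf1a by -0.63 (adjusted p = 0.0536). Cd40, which macrophages and B cells use to receive T cell help, rose by 2.63 (SE 0.14). Tnfrsf14, which encodes HVEM, the receptor of LIGHT, rose by 1.08 (SE 0.15) and its response was 1.23 lower in Ifnar2-/- (-1.23, adjusted p = 0.0028).

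Among the receptors of the members, Fas, the receptor of Fas ligand, rose by 0.62 (SE 0.18, adjusted p = 0.0181) in wild type and differed by 0.51 (adjusted p = 0.177) in Ifnar2-/-. Tnfrsf10b, the mouse TRAIL death receptor, was above background on 9 of 12 arrays and differed by 0.30 (SE 0.44, adjusted p = 0.643) in wild type. The decoy receptors Tnfrsf22, Tnfrsf23 and Tnfrsf11b differed by -0.32, 0.34 and 0.07 there, none past the test. Tnfrsf4 and Tnfrsf25, the receptors of OX40 ligand and TL1A, differed by 0.15 and -0.46 in wild type, neither past limma's test. Ltbr, the lymphotoxin beta receptor, rose by 0.40 (SE 0.15, adjusted p = 0.0481). Of the BAFF receptors, Tnfrsf13b, which encodes TACI, fell by 1.04 (SE 0.18) in wild type, while Tnfrsf13c and Tnfrsf17 differed by 0.11 and 0.69 (adjusted p = 0.827 and 0.300). The T cell costimulatory receptor Cd27 fell by 1.16 (SE 0.24). Tnfrsf18, which encodes GITR, fell by 1.04 (SE 0.23), and Tnfrsf19 fell by 1.64 (SE 0.37). Between genotypes, 4 receptors were higher in Ifnar2-/- after PBS and none lower, against 2.85% and 2.04% of all genes. They were led by Tnfrsf11a (1.18, adjusted p = 0.00519), Cd27 (1.11, adjusted p = 0.0273) and Cd40 (0.79, adjusted p = 0.00951). No slide held both genotypes after PBS, so slide and genotype cannot be told apart in these calls. With slide as a fixed block 31 of all genes were called after PBS instead of 892. After IFN-β, 5 receptors were higher in Ifnar2-/- and 4 lower, against 21.3% and 17.2% of all genes. Those higher were led by Cd27 (1.86), Tnfrsf11a (0.84) and Tnfrsf13b (0.75), with Tnfrsf25 at 0.75 too (adjusted p = 0.0139). Those lower were led by Cd40 (-1.66), Tnfrsf14 (-1.19) and Tnfrsf1b (-0.89).

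**Figure D3:**
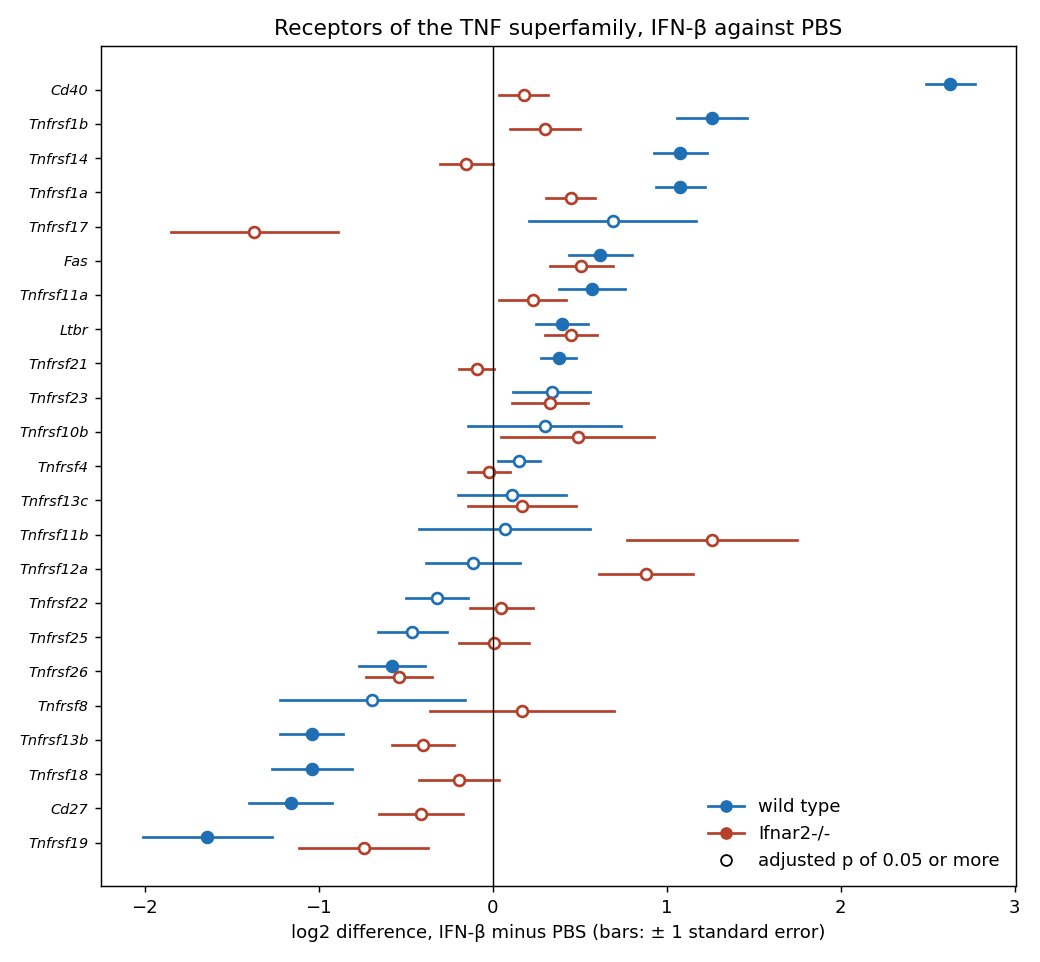
Log2 difference between IFN-β and PBS (x axis, bars ± 1 SE) for the 23 tested receptors (y axis) in wild type and in Ifnar2-/-, with open points for an adjusted p of 0.05 or more. The filled points, 8 higher and 5 lower, are all wild type, from Cd40 at 2.63 to Tnfrsf19 at -1.64. Of all genes 17.6% were higher and 21.8% lower in wild type.

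Of 36 genes for signalling, shedding and NF-kB control, 17 rose and 4 fell in wild type, with a median of 0.41. Of all genes 17.6% rose and 21.8% fell, with a median of -0.04. Casp8, the caspase that death receptors activate, rose by 2.02 (SE 0.12), Rhbdf2, which supports the sheddase that releases TNF, by 1.60 (SE 0.11), and Rnf31, the catalytic subunit of the linear ubiquitin ligase, by 1.58 (SE 0.13). The NF-kB inhibitors Cyld and Tnip1 fell by 0.65 (SE 0.20) and 0.46 (SE 0.14), and Ikbkg, which encodes the NEMO subunit of the IKK complex, by 0.43 (SE 0.14). In Ifnar2-/- 2 of the 36 rose and none fell, against 0.925% and 0.208% of all genes. They were Tnfaip3 (1.23, SE 0.18, adjusted p = 0.0141) and Rhbdf2 (0.68, SE 0.11, adjusted p = 0.016). Tnfaip3, an NF-kB target that restrains TNF receptor signalling, rose by 1.57 in wild type, and its responses differed by -0.34 (SE 0.26, adjusted p = 0.432). The Rhbdf2 response was lower in Ifnar2-/- by limma's test (-0.92, adjusted p = 0.00183). Adam17, the TNF sheddase itself, differed by -0.06 in wild type and 0.38 in Ifnar2-/- (adjusted p = 0.797 and 0.206). Between genotypes none of the 36 passed after PBS, where 2.85% of all genes were higher and 2.04% lower. After IFN-β, 6 were higher in Ifnar2-/- and 10 lower, against 21.3% and 17.2% of all genes. Those higher were led by Tnip1 (1.45), Traf3 (1.02) and Relb (0.78), and those lower by Casp8 (-1.78), Rnf31 (-1.75) and Traf5 (-1.15).

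Of 6 genes that regulate Tnf mRNA or its transcription, 2 rose and 1 fell in wild type, against 17.6% and 21.8% of all genes. None passed in Ifnar2-/-, where 0.925% of all genes rose and 0.208% fell. Zfp36, which encodes tristetraprolin, a protein that destabilises Tnf mRNA, rose by 1.44 (SE 0.18), and its response was lower in Ifnar2-/- (-0.96, adjusted p = 0.0259). Litaf rose by 0.72 (SE 0.19) and Zfp36l2 fell by 1.00 (SE 0.32). After IFN-β, Zfp36 was lower in Ifnar2-/- than in wild type (-0.97, adjusted p = 0.00182) and Zfp36l2 higher (0.95, adjusted p = 0.0367). Of 8 further ligands of the family, 5 were tested (Tnfsf8, Tnfsf12, Tnfsf13, Tnfsf18 and Cd70) and none passed in either genotype. Of all genes 17.6% rose and 21.8% fell in wild type, and 0.925% and 0.208% did in Ifnar2-/-. After IFN-β, Tnfsf12, which encodes TWEAK, was 2.29 higher in Ifnar2-/- than in wild type (SE 0.68, adjusted p = 0.0218). After PBS its means were 0.05 (SD 1.35) in Ifnar2-/- and -1.39 (SD 0.31) in wild type, which did not pass. Its responses differed by 0.85 (SE 0.96, adjusted p = 0.631 by limma). Tnfsf18 was higher in Ifnar2-/- after IFN-β as well (0.84, adjusted p = 0.0432). It was well above background on 0 of 3 wild-type and 1 of 3 Ifnar2-/- arrays after IFN-β, so no fold is given.

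Genes whose levels were most like those of a ligand over the 12 arrays were sought among 15280 genes, as a description. The nearest to Tnfsf10 were Lgals9 (r = 0.992), Peli1 (r = 0.991) and Vps54 (r = 0.989), and the nearest to Tnf was Nfkb1 (r = 0.965), which encodes an NF-kB subunit. The nearest to Tnfsf13b was Scp2 (r = 0.975), to Ltb Cnn2 (r = 0.953), to Tnfsf4 Chst11 (r = 0.952) and to Lta the NK cell receptor Klrc1 (r = 0.930). These points share the 4 groups and the slides.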

How the data were processed

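Cy3-labelled RNA (0.2 µg a sample) from 12 mice was hybridised to single-colour arrays on 3 slides, each scanned apart. Per the file headers and the submitters' processing notes, the authors quantified them with Agilent Feature Extraction 9.5.3.1. The deposited processed signal is a linear intensity, corrected for background within each array and not normalized between arrays, and the deposited series table holds the same intensity values. Probe positions are those of the file headers' mm7 build. No annotation of that build was used, so exons and untranslated regions are not given.

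Each processed signal was taken to log2 and scaled by subtracting its array's 75th percentile. Outlier spots were left out and spots of a probe averaged. Probes entered when at least 1 group had every array well above background and 6 or more arrays held values (27715 probes). The probe with the highest mean signal stood for a gene (18274 genes). One limma 3.58.1 fit with 4 group means (R 4.3.3, version 1.17.8 of data.table) served 5 comparisons, two-sided, with Benjamini-Hochberg adjustment over all genes and a threshold of 0.05. The procedure was tested on simulated data. With 3 arrays a group, their number limits the precision, and levels near background have the limits given per slide.

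All 10 ligands are named whatever their result. Of the other lists, the genes named are up to 3 in each direction with the largest differences past the threshold, in each comparison of 2 groups, and the receptors of the members. Adam17, Tnfrsf18 and the decoy receptors were chosen after their values were seen. Members and lists were chosen with earlier results of these data known. Alternatives were other background correction, scaling, filters, probe rules, variance models, slide and replicate blocks, leaving out each array and, added after seeing the data, a floor for levels not above background.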

Additional observations from a re-analysis of the deposited data

Results flagged for a closer look

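Tnfsf10 and Tnfsf9 drew attention because limma's test of the difference between the genotypes' responses to IFN-β passed for them. For Tnfsf10 the response in Ifnar2-/- minus that in wild type was -6.95 (SE 0.34, adjusted p = 6.1e-07, 12 arrays), with no overlap between wild type after IFN-β and any other group. For Tnfsf9 it was 1.56 (SE 0.43, adjusted p = 0.0285, 12 arrays), with 2 of 3 Ifnar2-/- arrays after PBS not above background and 0.27 (adjusted p = 0.690) once such levels were raised to the limit.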

How the results depend on the processing

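The counts of called ligands were 4 in wild type, 2 in Ifnar2-/-, 2 for the difference between the responses, 1 between genotypes after PBS and 4 after IFN-β. In Ifnar2-/- the count was 1 under quantile normalization, with only probes above background on all 12 arrays, and with levels near background raised to the limit, and 0 with only the arrays compared. For the difference between the responses it was 1 under quantile normalization, with no filter on dim probes, with only probes above background on all 12 arrays and with levels raised to the limit. After PBS it was 0 under normexp, quantile normalization, no filter, only probes above background on all 12 arrays, only the arrays compared, limma with trend and robust settings, slide as a fixed block, the replicate block and levels raised to the limit, where Tnfsf9 read 0.04 and changed sign. After IFN-β it was 1 with slide as a fixed block.

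Leaving out each array in turn gave 3 to 5, 1 to 3, 1 to 3, 0 to 2 and 2 to 4 ligands. Tnf in wild type and Tnfsf10 in wild type, between the responses and after IFN-β kept their calls in every setting run (2.13 to 2.96 for Tnf, 4.78 to 6.07, -7.15 to -5.38 and -6.31 to -4.95 for Tnfsf10). Fasl in wild type kept its call in all 25 settings that tested it, at 0.96 to 2.16. Tnf in Ifnar2-/- kept its call in 25 of 26. Under the replicate block the counts were 4, 2, 2, 0 and 4. Same-numbered arrays, each from a different mouse, correlated at -0.12 to 0.51 in their deviations. Of these pairs 4 of 18 exceeded 0.1, against 7 of 36 pairs with other numbers. The same-numbered Ifnar2-/- pairs of PBS and IFN-β, at 0.51, 0.19 and 0.10, also shared a slide. Number and slide cannot be told apart there, so these values do not settle whether the numbers pair arrays.

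Over all genes 207 were called in Ifnar2-/-, and 333 with normexp, 68 with no filter, 13 with only the arrays compared, 359 with trend and robust settings, 118 with slide as a fixed block and 32 to 289 without 1 array. With slide as a fixed block 4427 were called in wild type instead of 7205, 1921 instead of 3247 between the responses, 31 instead of 892 after PBS and 4359 instead of 7027 after IFN-β. After PBS 437 to 1254 were called without 1 array. All wild-type arrays after PBS lie on slide 1, which holds no Ifnar2-/- array, so no within-slide value exists after PBS. Fasl and Tnfsf9 have no value where all 12 arrays had to be above background, and the difference between the responses has none with only the arrays compared, since it uses all groups. Levels under about the array's limit, as for Tnfsf9, Fasl and Tnfsf15 on slide 3, carry no order.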
